A study of Mus musculus with 8 samples.

Results

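Ets factors are transcription factors that share a winged helix domain, which binds DNA at a core of GGAA. In blood, Erg and Fli1 are known for work in stem cells, megakaryocytes and vessel walls, Ets1 and Elf1 in lymphocytes, and the ternary complex factors Elk3 and Elk4 as partners of serum response factor that relay MAP kinase signals. The 10 genes described here, Erg, Fli1, Ets1, Ets2, Elf1, Elf2, Elf4, Elk3, Elk4 and Gabpa, were named by symbol as members of this family. The rule used none of their values, but the genes and the lists of partners, targets and markers were chosen with earlier results of these data known. All 10 had a row among the 14033 gene symbols of the table, each with 1 row. A list of 26 mouse Ets genes put them in context, and 20 of these were measured.

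The cells came from fetal livers of mouse embryos at E14.5, from Flt3-cre mice crossed to mTmG mice. The reporter gives red Tomato protein in every cell, and Cre swaps it for good for green GFP, so GFP marks a history of Flt3-cre activity, also where Flt3 is no longer on. Cells without lineage markers that carried Kit, Sca1 and CD150 were separated by flow cytometry into a Tomato+ group (not recombined, 4 libraries) and a GFP+ group (recombined, 4 libraries), and both groups come from the same cross. The series title names a transient developmental stem cell, and the comparison asks how cells with and without this history differ.

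The authors deposited the mean of each group but no value per library in the table used here. A mean is a normalized count averaged over the libraries of a group, and no SD or overlap between libraries can be given. The labels do not say whether libraries came from separate embryos or litters, so the authors' p-values may reflect technical spread. A gene is called here when the authors' adjusted p is under 0.05. Over all 14268 rows 7.49% were called, 4.86% higher and 2.64% lower in GFP+. The sorted surface genes were present in both groups, with the authors' means in GFP+ and Tomato+ at 4087 and 4950 for Kit, 59.5 and 70.1 for Ly6a (Sca1), and 27.9 and 119 for Slamf1 (CD150). Slamf1 was itself called lower in GFP+, with a log2 of -2.09 (adjusted p = 4.95e-08) in the authors' deposited table.

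Not 1 of the 10 Ets genes was called in the authors' comparison, for which the processing notes name DESeq, against that 7.49% of all rows. Of the 10, only 1, Fli1, had an unadjusted p under 0.05 in the authors' deposited table, a level that 16.2% of all rows reached. At an adjusted p under 0.1, which 9.63% of all rows met, Fli1 was again the only member. The log2 differences between GFP+ and Tomato+ ran from -0.40 for Fli1 to 0.37 for Ets1 in the authors' deposited table, with 4 above and 6 below 0 and a median of -0.078, where the median of all rows was 0.0095. Summed over the 10 genes, the authors' means came to 8537 in GFP+ and 8610 in Tomato+. Known targets of Erg and Fli1 in megakaryocytes and vessels were called lower in 10 of 12 measured cases, where 2.64% of all rows were. That list was chosen with such results known, so its count is no independent evidence of a direction.

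The promoter letters of some members and targets are given here as context. Of the 10 members, 8 matched the RefSeq promoter table (build GRCm38.p6), Fli1 and Ets1 being the others, with 15 listed starts in all. The 250 bases before each start were searched on both strands for CCGGAA, the core preferred by Gabpa and the Ets and Elk types, and for CAGGAA, a core found in many Erg and Fli1 sites. A CCGGAA match can overlap its own copy on the other strand, and each is then counted. CCGGAA stood in 12% and CAGGAA in 25.7% of all 32851 promoter windows, and at least 1 of them in 35.1%. Among the 15 windows of the members 2 held CCGGAA and 6 held CAGGAA. Such a match is a description of the letters, not a bound site.

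Of the members with a match, Gabpa, Elk3 and Erg are shown as examples, each 5′ to 3′ on the strand of its gene with the matches in capitals. The Gabpa window (chr16:84834874-84835123, plus strand) holds both cores, CAGGAA as written and CCGGAA on the other strand as TTCCGG. The Elk3 window (chr10:93311160-93311409, minus strand) has CAGGAA ending 21 bases before the start. The window of the third listed Erg start (chr16:95459349-95459598, minus strand) has CAGGAA on the other strand, read as TTCCTG, ending 33 bases before the start, and the other 2 Erg starts had neither core. Elk4, with CCGGAA at 1 start and CAGGAA at 2, and Elf2, with CAGGAA at 1 of 2 starts, also had matches and are not shown.
Gabpa: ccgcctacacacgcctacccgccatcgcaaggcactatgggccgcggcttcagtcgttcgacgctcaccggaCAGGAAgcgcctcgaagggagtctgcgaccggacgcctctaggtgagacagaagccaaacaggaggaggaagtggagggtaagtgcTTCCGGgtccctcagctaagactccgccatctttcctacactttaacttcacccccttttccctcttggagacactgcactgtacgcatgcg
Elk3: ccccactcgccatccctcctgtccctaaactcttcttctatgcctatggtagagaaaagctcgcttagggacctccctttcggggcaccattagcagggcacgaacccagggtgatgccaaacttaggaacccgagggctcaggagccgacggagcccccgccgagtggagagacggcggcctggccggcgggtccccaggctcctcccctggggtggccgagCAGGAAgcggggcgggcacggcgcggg
Erg: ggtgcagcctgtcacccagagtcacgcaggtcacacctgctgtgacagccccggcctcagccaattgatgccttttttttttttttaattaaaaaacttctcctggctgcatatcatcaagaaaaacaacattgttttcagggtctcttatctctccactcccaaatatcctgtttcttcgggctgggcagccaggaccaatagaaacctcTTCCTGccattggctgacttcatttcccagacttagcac

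Windows of 3 known Erg and Fli1 targets are shown, picked for a CAGGAA match from the targets called lower in GFP+. Gp9, Pf4 and Eng were also called lower, and their windows held neither core. They are Itga2b, the platelet integrin CD41 (chr11:102469884-102470133, minus strand), Gp1ba, a subunit of the platelet receptor for von Willebrand factor (chr11:70638872-70639121, plus strand), and Tek, the angiopoietin receptor Tie2 (chr4:94739039-94739288, plus strand). Each match reads TTCCTG, that is CAGGAA on the other strand, with the one nearest the start ending 46, 9 and 53 bases before it. Among 9 windows of the megakaryocyte and vascular target list 4 held CAGGAA and 1 held CCGGAA.
Itga2b: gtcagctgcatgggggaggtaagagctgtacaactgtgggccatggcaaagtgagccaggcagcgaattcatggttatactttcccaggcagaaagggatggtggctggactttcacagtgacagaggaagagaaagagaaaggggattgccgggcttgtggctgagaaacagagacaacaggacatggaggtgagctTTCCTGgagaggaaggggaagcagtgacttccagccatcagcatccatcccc
Gp1ba: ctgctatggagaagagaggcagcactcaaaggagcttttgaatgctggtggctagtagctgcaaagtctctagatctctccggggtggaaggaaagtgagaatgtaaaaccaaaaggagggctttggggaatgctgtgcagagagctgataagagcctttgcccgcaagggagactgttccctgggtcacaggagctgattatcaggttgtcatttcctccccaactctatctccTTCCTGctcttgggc
Tek: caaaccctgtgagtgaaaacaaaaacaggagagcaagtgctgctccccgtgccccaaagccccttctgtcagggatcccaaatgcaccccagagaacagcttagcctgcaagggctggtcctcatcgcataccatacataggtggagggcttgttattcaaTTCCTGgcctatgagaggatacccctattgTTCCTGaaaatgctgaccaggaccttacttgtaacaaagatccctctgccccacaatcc

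Erg and Fli1 make up the ERG subfamily, and both are needed for blood stem cells. For Fli1 the authors' mean was 878 in GFP+ and 1160 in Tomato+. It had the smallest p-value of the 10 genes, with a log2 of -0.40 (p = 0.00717, adjusted p = 0.0808) in the authors' deposited table, and it did not pass. The Fli1 mean was thus 24.3% below that of Tomato+, and 90.4% of the 5588 rows with a mean in the range of the members had a smaller absolute log2. Erg had means of 1021 and 1215 with a log2 of -0.25 (adjusted p = 0.503) in the authors' deposited table. Both genes were lower in GFP+ by the means, and the ratio of Fli1 to Erg per kb of exon was 0.898 in GFP+ and 0.997 in Tomato+.

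Ets1 and Ets2 form the ETS subfamily, whose proteins respond to MAP kinase signals, and Ets1 is the form known from lymphocytes. The authors' means of Ets1 were 300 in GFP+ and 231 in Tomato+, with a log2 of 0.37 (adjusted p = 0.661) in the authors' deposited table. Ets2 had 290 and 342, with a log2 of -0.24 (adjusted p = 0.687) in the authors' deposited table. The pair thus had means in opposite order, with neither gene called. Per kb of exon, the Ets1 to Ets2 ratio was 0.791 in GFP+ and 0.518 in Tomato+, 1.53-fold apart. A ratio of 2 genes within a group does not depend on how the groups were scaled, and this difference was not tested.

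In the GENCODE annotation of GRCm38, Fli1 and Ets1 are next to each other on chromosome 9 and Erg and Ets2 on chromosome 16, each pair pointing away from each other. The neighbours Erg and Ets2 had nearly the same log2 differences, so that the Ets2 to Erg ratio was 0.253 per kb in GFP+ and differed 1.01-fold between the groups. The neighbours Fli1 and Ets1 had log2 differences of opposite sign, and the Ets1 to Fli1 ratio per kb was 0.223 in GFP+ and 0.130 in Tomato+, 1.71-fold apart. This was not tested either.

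Among the ELF genes, Elf1, a regulator of lymphoid and vascular genes, had the authors' means of 1959 in GFP+ and 1636 in Tomato+. Its log2 was 0.26 (p = 0.0883, adjusted p = 0.437) in the authors' deposited table. Elf2 had means of 843 and 925, with a log2 of -0.13 (adjusted p = 0.916) in the authors' deposited table. Elf4, known for control of stem cell quiescence and of killer lymphocytes, had 1063 and 1080, the closest pair of means among the members, with a log2 of -0.02 (adjusted p = 0.968) in the authors' deposited table. The 3 ELF genes therefore differed in order, Elf1 with the higher mean in GFP+ and Elf2 and Elf4 in Tomato+, and none was called. The Elf1 to Elf2 ratio per kb was 4.29 in GFP+ and 3.27 in Tomato+.

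Elk3 and Elk4 bind DNA together with serum response factor, and Elk3 can act as a repressor. Elk3 had the authors' means of 1018 in GFP+ and 881 in Tomato+, with a log2 of 0.21 (adjusted p = 0.623) in the authors' deposited table. Elk4 had 269 and 308, with a log2 of -0.20 (adjusted p = 0.973) in the authors' deposited table. Elk1, the other ternary complex factor, had means of 136 and 137. The Elk3 to Elk4 ratio per kb was 4.18 in GFP+ and 3.15 in Tomato+, 1.33-fold apart and not tested.

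Gabpa, the DNA-binding subunit of the GABP complex, which drives genes of mitochondria and the Il7r gene of lymphocytes, had the authors' means of 897 and 832. Its log2 was 0.11 (p = 0.735, adjusted p = 1.00) in the authors' deposited table. That is the only member whose sign depends on the scaling. With both groups scaled to the same total, which lowers every log2 by 0.16, it became -0.049. The plot of both group means for each gene shows how small these differences are beside the range of levels in the family.

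**Figure D1:**
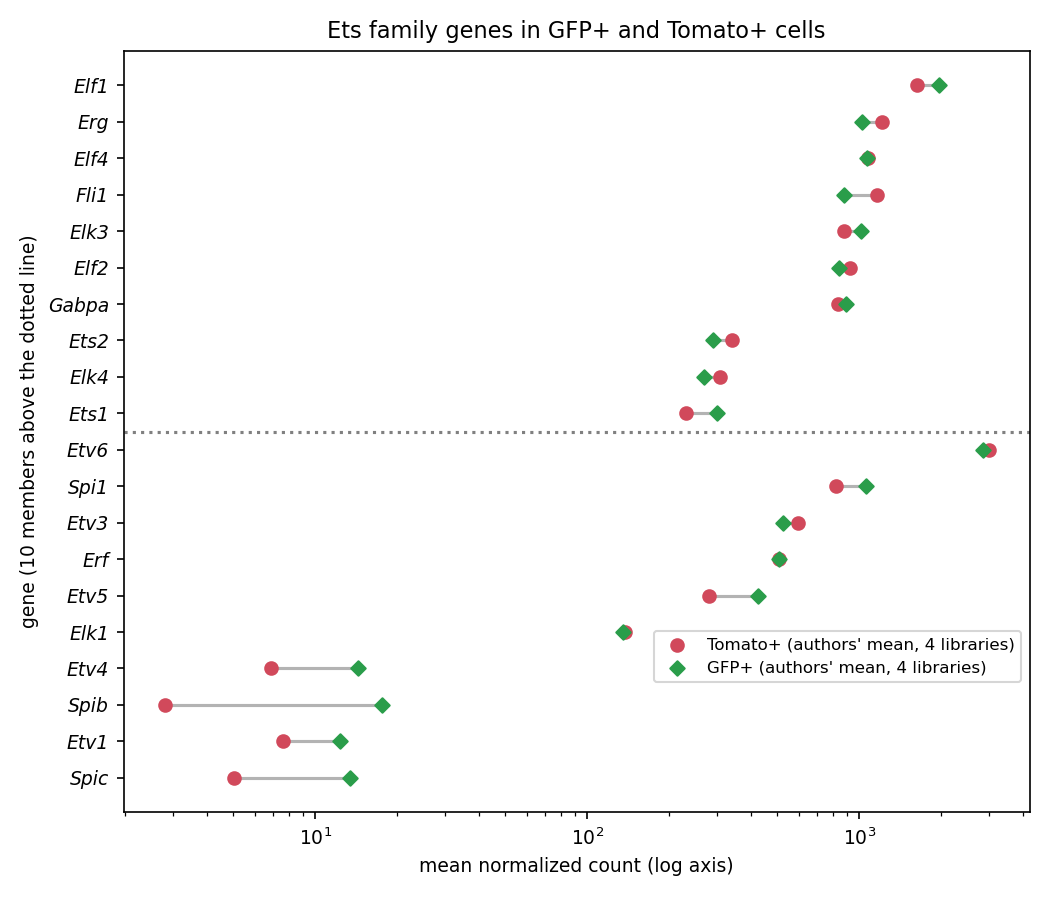
Mean normalized counts (horizontal log axis) of the 20 measured Ets genes in Tomato+ (circles) and GFP+ (diamonds) cells, the authors' means over 4 libraries each, with no error available; the 10 members stand above the dotted line. The members' means run from 231 to 1959 with short gaps between the groups, while Spib, Spic, Etv1 and Etv4 are low and have the widest gaps.

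Calls among rows at such levels are given here by the size of the observed difference. The p-value depends on that same difference, so these counts set no limit of detection for the Ets genes. The overall means of the 10 members ran from 265 to 1797 normalized counts, and 6.3% of the 5588 rows in this range were called. Among these rows 140 of 191 with an absolute log2 from 0.5 to 0.75 were called, and 58 of 59 from 0.75 to 1. From 0.25 to 0.5, where Fli1, Ets1, Elf1 and Erg lie, 67 of 1128 were called, and below 0.25, where the other 6 members lie, 5 of 4128. The median absolute log2 was 0.22 for the members and 0.15 for all rows in the range. Differences as small as those of the 10 Ets genes were thus seldom called in this table, so the missing calls do not show equal levels.

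**Figure D2:**
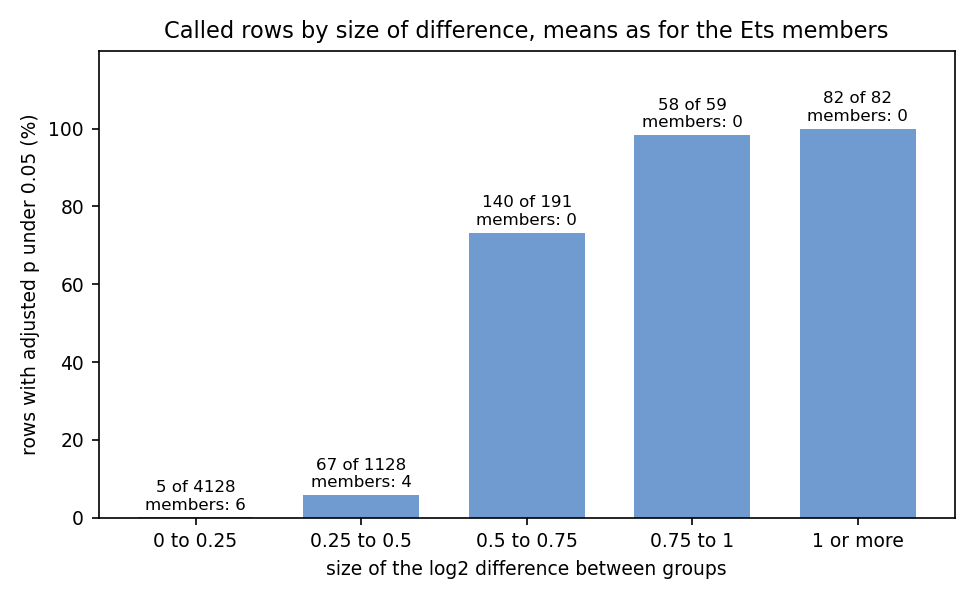
Percent of rows with an adjusted p under 0.05 (vertical axis) by absolute log2 difference between GFP+ and Tomato+ (horizontal axis), for the 5588 rows with an overall mean in the range of the Ets members. Numbers over the bars give called rows of all rows and the count of members in each bin; all 10 members lie in the 2 bins below 0.5, where few rows were called.

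**Figure D3:**
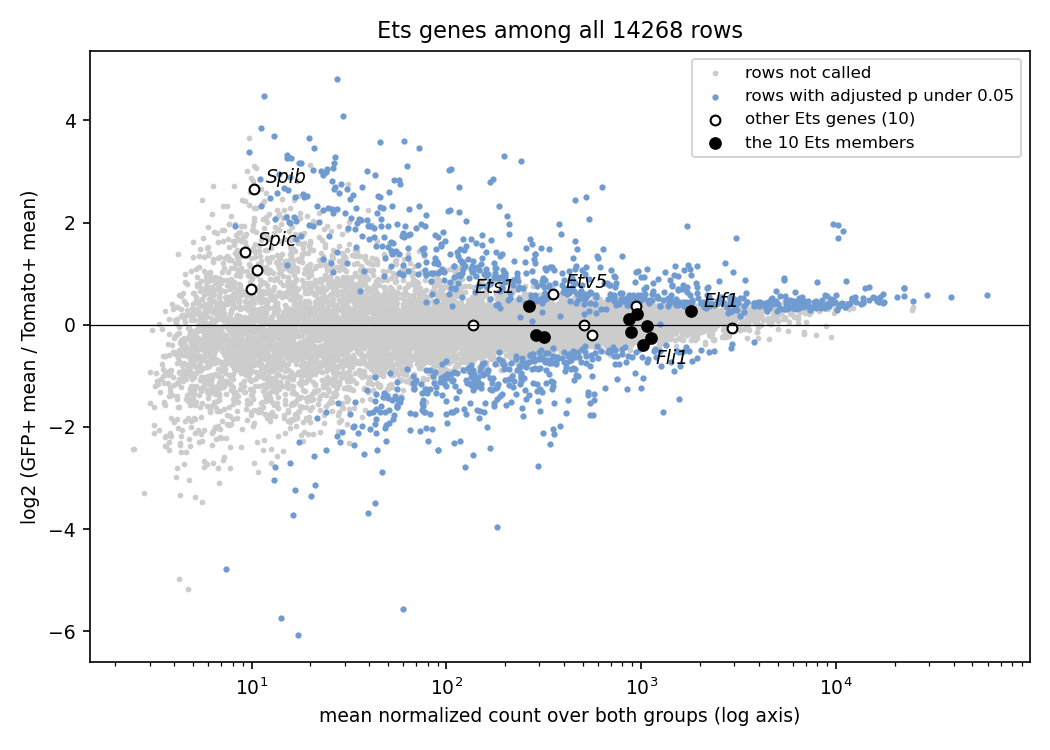
The log2 ratio of GFP+ over Tomato+ means (vertical axis) against the mean over both groups (horizontal log axis) for all 14268 rows, with called rows in blue, the 10 members in black and the other 10 Ets genes as open circles. All 20 Ets genes lie among the rows that were not called, and Spib and Spic stand highest at means near 10.

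The other 10 measured Ets genes were not called either, where 7.49% of all rows were. Of these 10, 3 had an unadjusted p under 0.05 in the authors' deposited table, a level that 16.2% of all rows reached. Etv5, a PEA3 factor downstream of growth factor signals, had the authors' means of 425 in GFP+ and 280 in Tomato+, with a log2 of 0.60 (adjusted p = 0.0807) in the authors' deposited table. Spi1, which encodes PU.1, a factor of myeloid and lymphoid cells, matched through its older symbol Sfpi1. It had 1059 and 821, with a log2 of 0.37 (adjusted p = 0.115) in the authors' deposited table. Spib, known from B cells and plasmacytoid dendritic cells, had only 17.7 and 2.80, with a log2 of 2.66 (adjusted p = 0.270) in the authors' deposited table. These genes had higher means in GFP+, the direction opposite to that of Erg and Fli1.

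Spic, a factor of iron-recycling macrophages, had the authors' means of 13.5 and 5.04, Etv4 of 14.4 and 6.88, and Etv1 of 12.3 and 7.61. The authors' deposited table put their adjusted p-values at 0.527, 0.917 and 0.846. All 4 Ets genes with a mean under 50 thus had the higher mean in GFP+, with none called. Means this low give unstable ratios. With 10 added to both group means, the log2 ran from 0.34 for Etv1 to 1.11 for Spib. The share of all rows with a mean under 50 that were higher in GFP+ is not given here. Etv6, a repressor needed by adult blood stem cells, had the authors' means of 2846 and 2985 and a log2 of -0.07 (adjusted p = 0.874) in the authors' deposited table. For the repressors Etv3 and Erf the authors' deposited table gave a log2 of -0.19 and -0.0080 (adjusted p = 0.777 and 0.989), and for Elk1 -0.013 (adjusted p = 1.00). No row was matched to Elf3, Elf5, Ehf, Etv2, Fev and Spdef, so they are not among the 20 measured genes.

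Most markers of macrophages, B lymphoid cells, hepatoblasts and erythroid cells had the higher mean in GFP+. Most markers of the megakaryocyte, endothelial and stem cell lists, given further below, had the lower mean there. Of 10 macrophage markers 8 were called higher in GFP+ and 0 lower, where 4.86% of all rows were called higher, with summed authors' means of 1467 in GFP+ and 473 in Tomato+. B lymphoid markers were called higher in 7 of 11 cases, with sums of 1160 and 316, hepatoblast markers in 10 of 11, with 3899 and 2010, and erythroid markers in 7 of 10, with 38891 and 12866. Most of the erythroid sum came from the globin genes Hba-a2 and Hbb-b1, with the authors' means of 16122 and 15589 in GFP+, while Klf1, Epor and Ermap, named after their values were seen, were not called, and the authors' deposited table gave them a log2 of -0.46, -0.89 and -0.31. No marker in these lists had a group mean of 0, but neither did any of the 14268 rows, so this does not set the markers apart. The sort kept cells without lineage markers and with Kit and Sca1. In such bulk samples more cells of a type and more RNA per cell cannot be told apart, and the part of these cell types in the values of Spi1, Spib, Spic and the members was not tested.

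Levels of different genes can be compared per length. The authors' means were divided by the merged exon length of each gene's coding transcripts in GENCODE M21, an annotation of another build than the mm9 of the table, so these levels are approximate. In GFP+ the order began with Spi1 at 521 normalized counts per kb, Etv6 at 499, Elf1 at 452, Erg at 295, Fli1 at 265 and Elk3 at 242. In Tomato+ it began with Etv6 at 523, Spi1 at 404, Elf1 at 378, Erg at 351, Fli1 at 350 and Elk3 at 209. The same 6 genes led in both groups, with Spi1 and Etv6 in changed places. Without values per library it cannot be said which neighbours in this order differ beyond their spread.

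Of the summed level per kb of the 20 genes, the 10 members held 57.6% in GFP+ and 60.5% in Tomato+. Erg and Fli1 together held 17.0% in GFP+ and 21.8% in Tomato+, the widest gap of any subfamily in percentage points. The PEA3 genes Etv1, Etv4 and Etv5 held 3.43% and 2.28%. Spi1, Spib and Spic held 16.2% and 12.7%, nearly all of it from Spi1. The ELF genes held 22.1% and 20.8%, the ternary complex factors 10.2% and 9.79%, and Gabpa 5.34% and 5.10%. These shares have no error and were not tested.

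**Figure D4:**
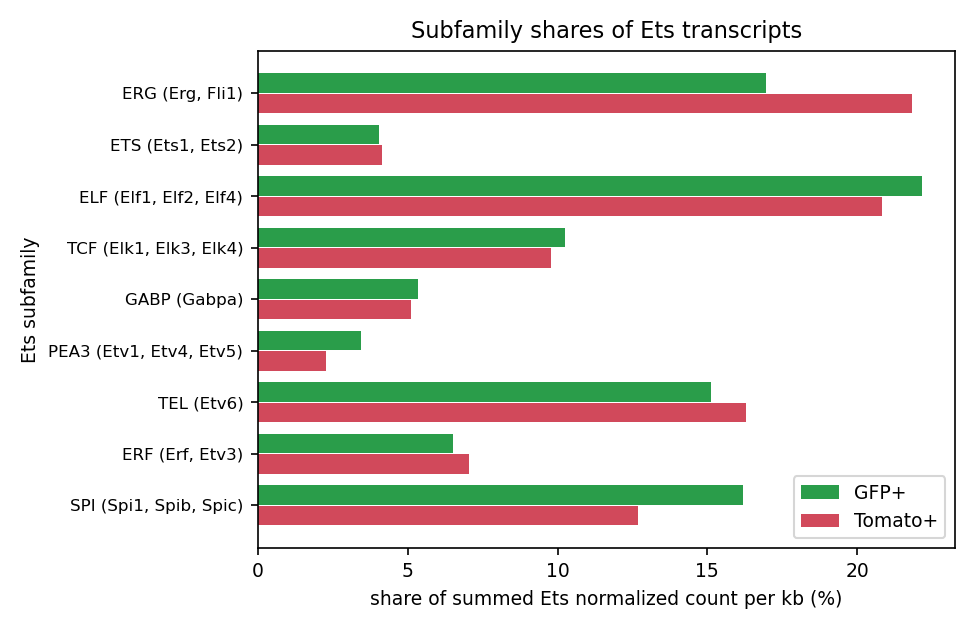
Share of the summed normalized count per kb of the 20 measured Ets genes held by each subfamily (horizontal axis, percent) in GFP+ (green) and Tomato+ (red) cells, from the authors' group means with no error available. The bar of Erg and Fli1 is shorter in GFP+ (17.0% against 21.8%), and that of Spi1, Spib and Spic is longer (16.2% against 12.7%).

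Erg and Fli1 act in blood stem cells in a group of 7 factors with Tal1, Lmo2, Lyl1, Runx1 and Gata2. Of these 5 partners and the Runx1 cofactor gene Cbfb, 2 of 6 were called lower and 0 higher, where 2.64% of all rows were called lower. Gata2 fell from 1371 in Tomato+ to 665 in GFP+, with a log2 of -1.04 (adjusted p = 5.83e-13) in the authors' deposited table. Tal1 fell from 1327 to 839, with a log2 of -0.66 (adjusted p = 0.00523) in the authors' deposited table. The authors' deposited table gave Lyl1, Cbfb and Lmo2, which were not called, a log2 of 0.13, 0.18 and -0.12, and Lyl1 became -0.023 with equal totals. Within this group of factors the GATA and Tal1 genes were called and Erg and Fli1 were not, and whether their changes differ was not tested.

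Known targets of Erg and Fli1 in megakaryocytes and vessels were called lower in 10 of 12 measured cases and higher in 0, where 2.64% of all rows were called lower. The list was chosen with such results known, so its count is no independent evidence of a direction. The median log2 was -1.34, beside 0.0095 over all rows. In megakaryocytes, Itga2b fell from 609 in Tomato+ to 155 in GFP+, with a log2 of -1.97 (adjusted p = 5.06e-27) in the authors' deposited table, and Gp1ba from 68.2 to 17.7, with -1.94 (adjusted p = 4.46e-04). In the authors' deposited table the log2 was -1.45 for Pf4, a platelet chemokine, and -0.94 for Gp9, of the same receptor as Gp1ba. All 5 measured megakaryocyte genes of the list were called.

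Among the vascular targets, Tek fell from 461 in Tomato+ to 144 in GFP+, with a log2 of -1.68 (adjusted p = 1.81e-13) in the authors' deposited table. In the authors' deposited table the log2 was -2.76 for Vwf, the von Willebrand factor, -2.07 for Kdr, a receptor of vascular growth factor, -1.24 for the receptor kinase gene Tie1 and -0.47 for Eng, a coreceptor of the TGF-beta family, all of them called. Cdh5, the cadherin of vessel walls, and Icam2, an adhesion molecule, were not called, and the authors' deposited table gave them a log2 of -0.73 and -0.51 (adjusted p = 0.190 and 0.0931). In all 12 genes the GFP+ mean was the lower, by more than in Fli1.

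Many of these targets also serve as markers. The marker lists, too, were chosen with earlier results of these data known. Over all rows 2.64% were called lower and 4.86% higher. In the marker lists, 8 of 10 megakaryocyte genes were called lower and 0 higher, with summed authors' means of 1997 in GFP+ and 4179 in Tomato+. Of 12 endothelial genes 5 were called lower and 1 higher, with sums of 3398 and 4327, and of 11 stem cell genes 9 lower and 0 higher, with 10286 and 15407. No marker had a group mean of 0, which holds for all 14268 rows. The lists share genes with the targets, and the part of cell composition in the lower target means was not tested.

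Ternary complex factors act with Srf and are switched on by MAP kinases. Of 10 measured partners and targets 3 were called lower and 0 higher, where 2.64% of all rows were called lower, with a median log2 of -0.20. The 3 are among the immediate early genes, which are induced within minutes of a stimulus. Ier2, another immediate early gene of the list, was not called. Egr1 fell from 342 in Tomato+ to 22.1 in GFP+ and Fos from 117 to 2.47, and the authors' deposited table gave a log2 of -3.96 and -5.57 (adjusted p = 8.72e-19 and 5.47e-12). Fosb fell from 34.1 to 0.510 (adjusted p = 0.00124) in the authors' deposited table. The GFP+ means of Fos and Fosb are too low for a stable ratio. With 10 added to both group means, the log2 was -3.46 for Egr1 and -3.35 for Fos. The other 2 measured targets, Ier2 and Mcl1, chosen after their values were seen, were not called, and the authors' deposited table gave them a log2 of -0.35 and -0.13 (adjusted p = 1.00 for each).

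The factors and kinases themselves were not called. Srf had a log2 of -0.06 and Mkl2, a Srf coactivator, -0.28, and the authors' deposited table put their adjusted p-values at 1.00 and 0.467. Thus the called genes of this list were all targets, and no factor, coactivator or kinase in it was called.

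Of 9 measured partners and targets of Gabpa, 2 were called higher and 0 lower, where 4.86% of all rows were called higher, and the median log2 was 0.18. Il7r, the interleukin-7 receptor, rose from 22.6 in Tomato+ to 184 in GFP+, with a log2 of 3.03 (adjusted p = 3.92e-14) in the authors' deposited table. Cox4i1, of the respiratory chain, rose from 1814 to 2475, with a log2 of 0.45 (adjusted p = 0.0105) in the authors' deposited table. Cox5b, Itgb2, a leukocyte integrin, and the Gabpa partner Gabpb2 were not called, and the authors' deposited table gave them a log2 of 0.22, 0.41 and -0.15. With equal totals the list's median was 0.02. B lymphoid markers were higher in the same direction as Il7r, with 7 of 11 called higher, and their part in its value was not tested.

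Of 4 measured lymphoid targets of Ets1, Elf1 and Elf4, only Cd79a, a signalling chain of the B cell receptor, was called, where 4.86% of all rows were called higher. It rose from 8.72 in Tomato+ to 69.9 in GFP+, with a log2 of 3.00 (adjusted p = 2.31e-04) in the authors' deposited table. Klf2, a quiescence factor of lymphocytes, had means of 16.4 and 57.6 with a log2 of -1.81 and an adjusted p of 1.00 in the authors' deposited table, and Klf4 and Lyn a log2 of -0.53 and -0.07. Cd79a is also among the B lymphoid markers that were called higher above.

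**Figure D5:**
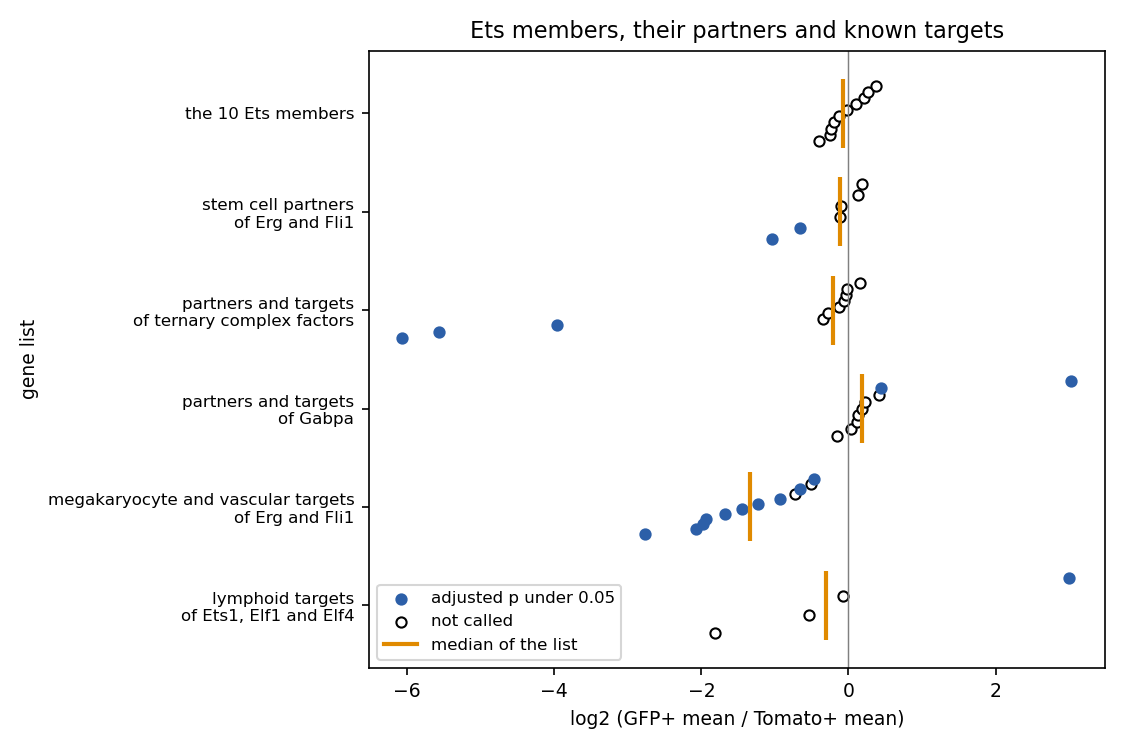
The log2 ratio of GFP+ over Tomato+ means (horizontal axis) for the 10 Ets members and for each list of partners and known targets (rows), with called genes filled, others open and the list's median as a bar. The members lie between -0.40 and 0.37 with none called. All 12 megakaryocyte and vascular targets lie below 0 and 10 of them are called, where 2.64% of all rows were called lower. The lists were chosen with earlier results of these data known.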

How the data were processed

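Total RNA of 8 sorted fetal liver libraries, 4 GFP+ and 4 Tomato+, had been sequenced. The submitters' processing notes name DESeq, bedtools, TopHat, TopHat2 2.0.11 and Bowtie2 2.2.1 and the build mm9, with no settings. The authors deposited a table with the mean signal (normalized count) of each group, the ratio of both means, its log2, and for each row the p-value with its adjusted form. A repeated header line was dropped. Checked on the rows, the ratio was Tomato+ over GFP+ within a relative 7.8e-07, so signs were turned to give GFP+ over Tomato+, and the adjusted p matched a Benjamini-Hochberg adjustment over all 14268 rows within 5.3e-08. Group means allow no further test, and the depth per library is unknown. Where a symbol has several rows, that of highest mean was used. The members and lists were chosen with earlier results of these data known. Named genes are all measured Ets genes and, of each partner or target list, the called genes and up to 3 more with the smallest p, some of which are not reported here; Kit, Ly6a and Slamf1 are given for the sort, and Hba-a2 and Hbb-b1 for the erythroid sum. Counting and adjustment (Python 3.11.15, pandas 2.3.3) were tested on simulated data. Alternatives were other thresholds, a minimum mean of 50, a minimum log2 change of 1, Bonferroni, equal totals, centring and a pseudocount of 10.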

Additional observations from a re-analysis of the deposited data

How the results depend on the processing

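No paired analysis was possible because only group means were given, and for that reason leaving out single libraries was not run either. None of the 10 Ets genes was called with a minimum mean of 50. Nor was any with adjustment over the rows in the range of the members' means, a setting chosen after seeing the data. An adjusted p of 0.01, a minimum absolute log2 of 1 and Bonferroni are stricter than the main cut and could not add a call. Taking the lowest row per symbol could change nothing, since each member has 1 row. At an adjusted p under 0.1 1 member was called (Fli1, lower) and 2 of the 20 Ets genes (Fli1 lower, Etv5 higher), where 9.63% of all rows were. Over all rows the 1069 calls became 699 at 0.01, 492 with the minimum log2 and 308 with Bonferroni. The partner and target lists had 18 calls among 41 genes (3 higher, 15 lower). Over all rows 4.86% were called higher and 2.64% lower at that threshold. The lists had 11 calls with Bonferroni (1 higher, 10 lower) and 13 to 19 otherwise, and they were chosen with earlier results known. The members' median log2 of -0.078 was -0.23 with equal totals, -0.11 with centring and -0.077 with a pseudocount. With equal totals Gabpa turned from 0.11 to -0.049 and Lyl1 from 0.13 to -0.023, since the shift of 0.16 exceeds their difference.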
